A study of Mus musculus with 36 samples.

Results

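The liver clears ammonia, the toxic nitrogen waste of amino acid breakdown, through the urea cycle, and 10 genes of that cycle and of the glutamine and glutamate reactions that feed it are described here over 24 h in mice exposed to intermittent hypoxia (IH). They were taken by symbol: Cps1, Otc, Ass1, Asl, Arg1 and Nags of the cycle, Gls2, Glud1 and Got1, which release or move its nitrogen, and Asns, which uses glutamine to make asparagine. All 10 were found among the 24066 symbols that stood on 1 row of each expression table, all had a value above 0 in every library, and all passed the filter that left 13215 genes for testing.

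The 36 liver libraries came from wild-type male C57BL/6JRj mice aged 16 weeks, housed 5 per cage under equal hours of light and dark with food always present. IH mice breathed air that cycled 60 times per h between a nadir of 5% and a peak of 21% oxygen from ZT0 to ZT8, within the light phase (ZT, hours after lights on), each day for 4 weeks, while control mice were given matched cycles of air. Livers of 3 mice per condition were collected at ZT0, ZT4, ZT8, ZT12, ZT16 and ZT20, so each mouse gave 1 time point. The design covers 1 sex of 1 strain, and in whole liver fewer cells of a type and less RNA per cell cannot be told apart.

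Values are FPKM (fragments per kilobase of transcript and sequencing depth), so levels can be set beside each other between genes. Comparisons between mice also depend on how the libraries are scaled, as given below. Read counts behind the values were not used here and the depth of each library is unknown. Differences and rhythms were tested with limma on log2(FPKM + 1), and a gene was called at a nominal P of 0.01 or less, with the Benjamini-Hochberg adjusted p beside it. Liver identity was clear in all libraries: albumin (Alb) ranged from 23400 to 37561 FPKM and Hnf4a, a hepatocyte factor, from 61.1 to 161 FPKM. One library stood apart. Control ZT12 replicate 2 had a summed FPKM of 758113 against 540095 to 579428 in the other 35 libraries, and its replicates correlated with it at as little as r = 0.949 across genes. Its genes of the lowest 25% by exon length were higher than in the other two ZT12 control libraries (median log2 difference 0.16) and those of the highest 25% lower (-0.55). In 3 libraries the acute-phase gene Saa1 exceeded 10000 FPKM: IH ZT0 replicate 2 (22865), control ZT12 replicate 2 (20546) and control ZT16 replicate 3 (12912).

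The cycle starts in the hepatocyte mitochondrion, where Cps1 fixes ammonia into carbamoyl phosphate, with N-acetylglutamate made by Nags as its obligate activator, and Otc joins the product to ornithine as citrulline. Citrulline leaves for the cytosol, where Ass1 and Asl add the second nitrogen from aspartate and release fumarate and arginine, and Arg1 splits arginine into urea and ornithine. Gls2, the liver glutaminase, and Glud1, glutamate dehydrogenase, supply ammonia in the mitochondrion, and Got1, the cytosolic aspartate aminotransferase, links glutamate with aspartate. The enzymes of the cycle and Gls2 are enriched in periportal hepatocytes and are known to respond to glucagon, glucocorticoids and dietary protein. Asns is a classical target of the amino acid response factor Atf4 and is low in normal liver.

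The 10 genes lie on 9 chromosomes (mm10, positions from GENCODE): Cps1 at chr1:67123026-67231259 on the plus strand, Ass1 at chr2:31470207-31520672 (plus), Asl at chr5:130011258-130029247 (minus), Asns at chr6:7675169-7693254 (minus), Arg1 at chr10:24915221-24927484 (minus), Gls2 at chr10:128194457-128210004 (plus), Nags at chr11:102145513-102149477 (plus), Glud1 at chr14:34310727-34345265 (plus), Got1 at chr19:43499752-43524605 (minus) and Otc at chrX:10252305-10321024 (plus). Nags is overlapped by 1 antisense gene (Gm11586) and Gls2 by 1 gene on the other strand (Spryd4). The libraries keep strand, but whether strand was used in counting is not given in the sources used here, so reads of these overlapping genes may have been shared.

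Promoters from RefSeq (GRCm38.p6, 250 bases before to 50 after the start site) were matched for 6 of the 10 genes, Otc, Ass1, Nags, Glud1, Got1 and Asns. They were searched on both strands for the cAMP response element (TGACGTCA) and its short form (TGACG), the clock E-box (CACGTG), the D-box (TTATGTAA or TTACGTAA), the C/EBP-ATF response element of the amino acid response (TGATGNAA), the C/EBP site (TTGCNNAA) and the glucocorticoid response element (GNACANNNTGTNC); the full cAMP response element contains its short form. The 4 promoters with a match are shown: Ass1 was called higher in IH at ZT4 and ZT8, Asns varied most between mice, Got1 shares a motif with Asns, and Nags was called rhythmic under IH. The Ass1 call was lost in 13 of 24 alternative fits and the Nags call in 15 of 31. Each reads 5′ to 3′ on the strand of the gene, with the matched letters in capitals.
Ass1, chr2:31470020-31470319, plus strand: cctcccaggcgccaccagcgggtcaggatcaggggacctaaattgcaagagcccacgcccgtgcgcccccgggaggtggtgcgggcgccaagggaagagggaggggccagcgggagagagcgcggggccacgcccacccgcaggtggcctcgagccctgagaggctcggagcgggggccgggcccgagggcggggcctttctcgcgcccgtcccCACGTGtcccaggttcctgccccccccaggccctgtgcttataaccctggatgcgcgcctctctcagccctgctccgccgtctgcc
Asns, chr6:7693160-7693459, minus strand: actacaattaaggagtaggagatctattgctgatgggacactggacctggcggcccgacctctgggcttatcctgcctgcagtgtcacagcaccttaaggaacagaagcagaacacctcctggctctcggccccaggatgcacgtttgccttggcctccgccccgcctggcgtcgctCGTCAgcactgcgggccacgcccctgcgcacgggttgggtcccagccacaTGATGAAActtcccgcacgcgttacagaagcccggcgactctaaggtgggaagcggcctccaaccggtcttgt
Got1, chr19:43524556-43524855, minus strand: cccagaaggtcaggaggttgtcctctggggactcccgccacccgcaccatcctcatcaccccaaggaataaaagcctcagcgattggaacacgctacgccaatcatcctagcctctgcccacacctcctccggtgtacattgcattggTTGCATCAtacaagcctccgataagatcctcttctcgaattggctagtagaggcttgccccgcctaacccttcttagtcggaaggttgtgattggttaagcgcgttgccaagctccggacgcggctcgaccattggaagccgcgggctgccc
Nags, chr11:102145263-102145562, plus strand: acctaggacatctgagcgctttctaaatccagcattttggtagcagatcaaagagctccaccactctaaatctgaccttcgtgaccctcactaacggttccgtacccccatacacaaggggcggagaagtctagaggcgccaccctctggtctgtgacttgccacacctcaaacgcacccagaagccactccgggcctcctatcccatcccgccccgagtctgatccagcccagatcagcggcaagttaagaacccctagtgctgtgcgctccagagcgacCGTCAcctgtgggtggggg
Ass1 carried an E-box from base -36, a motif found in 7.15% of 32817 promoters of this length. Asns carried the C/EBP-ATF element from base -23 and the short cAMP element from base -73, and Got1 carried the C/EBP-ATF element on the reverse strand from base -102. The C/EBP-ATF letters occurred in 3.97% of promoters and the short cAMP letters, also found in Nags from base 32, in 20.8%. No listed motif was found in these windows of Otc and Glud1. A match describes letters only.

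Levels spanned a wide range. Over all 36 libraries the median was 1017 FPKM for Ass1, 859 for Arg1, 525 for Cps1, 289 for Asl, 257 for Glud1, 176 for Otc, 126 for Gls2, 78.4 for Got1, 29.9 for Nags and 1.24 for Asns. Most neighbours in this order kept their order inside each mouse, since Arg1 exceeded Cps1, Glud1 exceeded Otc, Otc exceeded Gls2, Gls2 exceeded Got1, Got1 exceeded Nags and Nags exceeded Asns in 36 of 36 libraries. Ass1 exceeded Arg1 in 34 libraries and Cps1 exceeded Asl in 35. Asl and Glud1 could not be ordered, as Asl was above Glud1 in 21 of 36 libraries. The spread between mice also differed between genes: the highest control library exceeded the lowest 1.52-fold for Arg1 and 1.55-fold for Otc, but 3.73-fold for Got1 and 22.4-fold for Asns.

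**Figure D1:**
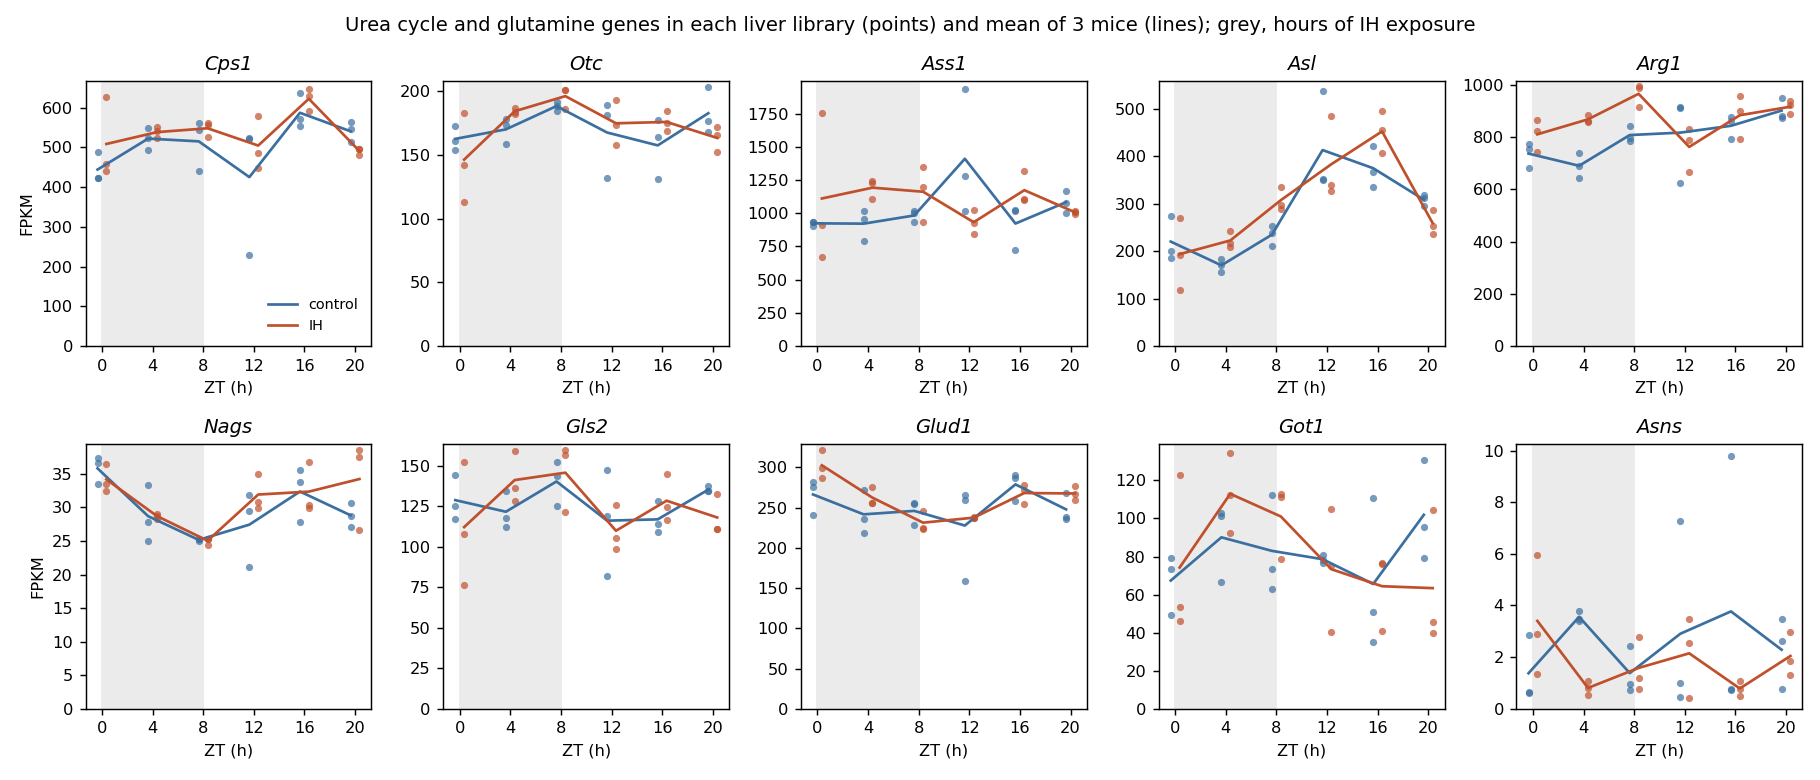
FPKM (vertical axis, from 0) against zeitgeber time in h for the 10 genes, with 1 point per mouse, lines through the means of 3 mice, control in blue, IH in orange and the exposure hours in grey. Mean Asl goes from 170.1 FPKM at ZT4 to 375 at ZT16 in control and from 222 to 452 in IH, Arg1 runs higher in IH at ZT4 and ZT8, and Asns is low apart from a few mice.

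The first question was which of these genes cycled over the day in each condition. Asl, argininosuccinate lyase, was the one member with a 24-h rhythm in both. In control mice Asl held 274, 186 and 200 FPKM at ZT0, 183, 171 and 156 at ZT4, 239, 212 and 254 at ZT8, 351, 537 and 350.1 at ZT12, 367, 422 and 335 at ZT16 and 296, 318 and 312 at ZT20. In IH mice it held 193, 119 and 269 FPKM at ZT0, 216, 209 and 242 at ZT4, 298, 335 and 290 at ZT8, 326, 340.1 and 484 at ZT12, 407, 455 and 495 at ZT16 and 237, 288 and 252 at ZT20. In each condition the 3 ZT4 libraries lay below every library of ZT12 and ZT16. The fitted peak fell at 15.1 ± 0.45 h (SE) in control, with a peak 2.33-fold above the trough (limma, adjusted p = 6.2e-05), and at 13.5 ± 0.58 h in IH, with a 2.29-fold range (adjusted p = 2.2e-04). The rhythms were not shown to differ (limma interaction, adjusted p = 0.92).

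In control mice Asl was the only 1 of the 10 members called rhythmic, where 20.0% of all 13215 genes were called. Under IH 3 members were called, Asl, Glud1 and Nags, where 39.9% of all genes were. Neither share exceeded its background. Glud1 held 321, 287 and 299 FPKM at ZT0 in IH, against 223, 225 and 246 at ZT8 and 237, 238 and 237 at ZT12, and the 3 ZT0 libraries exceeded all of these. Its fitted peak under IH was at 22.3 ± 0.71 h with a 1.25-fold range (limma, adjusted p = 0.0013). In control mice Glud1 held 241, 282 and 276 FPKM at ZT0 and 260, 158 and 265 at ZT12, and no rhythm was called (1.12-fold range, limma adjusted p = 0.62).

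Nags, which makes the activator of Cps1, was lowest at ZT8 in both conditions: 25.0, 25.3 and 25.2 FPKM in control and 24.4, 25.4 and 25.3 in IH. At ZT0 it held 37.4, 36.6 and 33.5 FPKM in control and 36.5, 33.6 and 32.5 in IH, so within each condition the ZT0 and ZT8 values did not overlap. The cosine fit called Nags under IH (peak 19.6 ± 1.06 h, 1.29-fold range, limma adjusted p = 0.020) and not in control (peak 21.5 ± 1.45 h, 1.26-fold, adjusted p = 0.15). The IH call is fragile, since 12 of the 18 fits that each left out 1 IH library lost it, as did the fit without the 3 libraries of high Saa1. The difference between the conditions was not called for Nags (limma, adjusted p = 0.95) or Glud1 (adjusted p = 0.93).

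The remaining 7 members had no called rhythm in either condition. Under IH, Otc (peak 9.50 h, 1.24-fold range, limma adjusted p = 0.068) and Got1 (peak 5.97 h, 1.91-fold, adjusted p = 0.069) came nearest. In control mice Arg1 came nearest (peak 16.2 h, 1.22-fold, limma adjusted p = 0.16). That value rested on 1 library: control Arg1 held 737, 690.2 and 643 FPKM at ZT4 and 874, 879 and 951 at ZT20, and control ZT12 replicate 2 held 626 beside replicates of 914 and 912. Without that library Arg1 was called rhythmic in control, with all other members except Asl still uncalled. Across all 10 members the test of the difference between the rhythms called none, where 0.931% of all genes were called. By limma 0 members had an unadjusted P under 0.05, and no gene of the 13215 passed an adjusted p of 0.05. Without control ZT12 replicate 2 the test called Glud1 (limma adjusted p = 0.77), and without all 3 libraries of high Saa1 it called Glud1 too (adjusted p = 0.40).

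**Figure D2:**
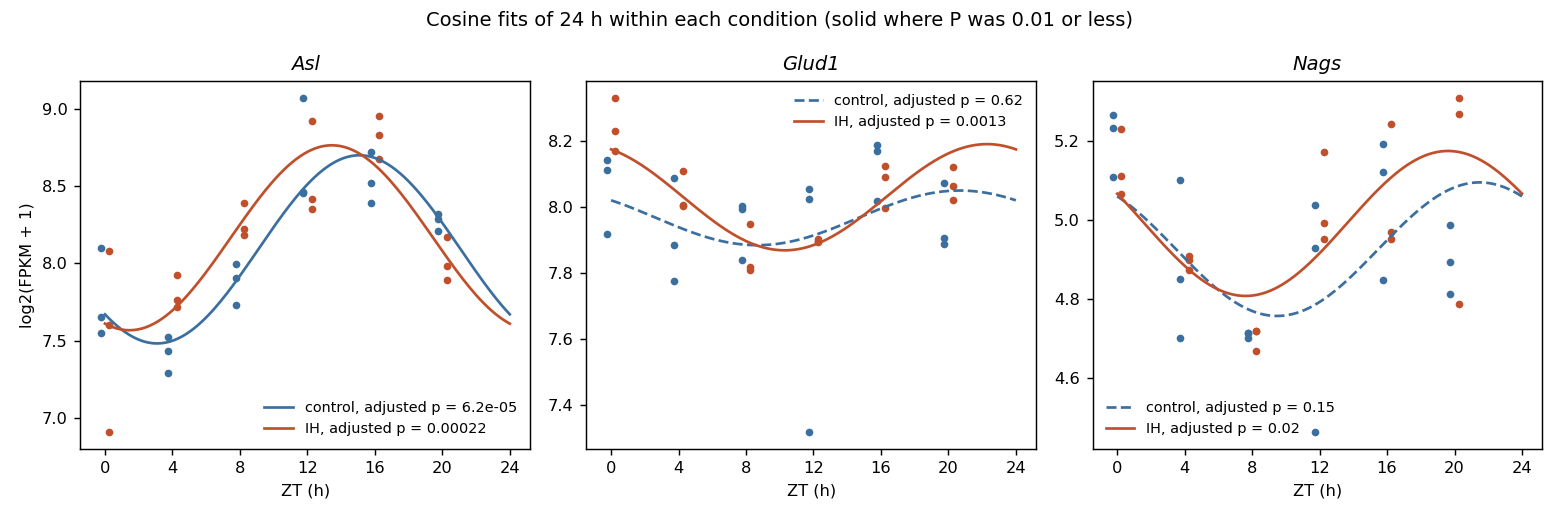
log2(FPKM + 1) (vertical axis) against zeitgeber time in h for Asl, Glud1 and Nags, with 1 point per mouse and the fitted 24-h cosine of each condition, solid where P was 0.01 or less and dashed otherwise. The Asl curves have almost the same height and peak at 15.1 h (control) and 13.5 h (IH), and 1 control ZT12 library lies far below the others in Glud1 and Nags.

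The second question was whether IH changed the level of these genes during the daily exposure. At ZT4 and ZT8 combined, with 6 mice per condition, Arg1, Asl and Ass1 were higher in IH, and no member was lower, where 9.49% of all genes were called higher and 2.89% lower. These 3 are the enzymes of the cytosolic steps. Arg1 held 737, 690.2 and 643 FPKM in control and 861, 857 and 885 in IH at ZT4, then 795, 785 and 844 in control and 996, 987 and 913 in IH at ZT8. At each of these time points the lowest IH library exceeded the highest control library, and Arg1 was 1.23-fold higher over both (log2 difference 0.29 ± 0.05 SE, limma adjusted p = 0.010).

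Asl showed the same separation, with the values listed above. IH libraries ranged from 209 to 242 FPKM against 156 to 183 in control at ZT4, and from 290 to 335 against 212 to 254 at ZT8. The difference came to 1.31-fold (log2 0.39 ± 0.06, limma adjusted p = 0.010). Ass1, argininosuccinate synthase, held 1017, 958 and 791 FPKM in control and 1229, 1109 and 1240 in IH at ZT4, with no overlap. At ZT8 it held 998, 933 and 1019 FPKM in control and 1351, 1201 and 934 in IH, where 1 IH mouse lay among the controls. Ass1 was 1.23-fold higher over both time points (log2 0.30 ± 0.09, limma adjusted p = 0.064), which misses an adjusted p of 0.05, and 7 of the 12 fits that each left out 1 of these libraries lost the call. When the same contrast was taken from a fit of all 36 libraries, whose spread includes the libraries that stood apart, Arg1 stayed called and Asl and Ass1 did not.

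The mitochondrial steps showed smaller differences at these hours. Cps1 held 494 to 547 FPKM in control and 523 to 551 in IH at ZT4, and 439 to 562 and 526 to 562 at ZT8 (log2 0.07 ± 0.06, limma adjusted p = 0.47). Otc held 173, 178 and 159 FPKM in control against 184, 182 and 187 in IH at ZT4, without overlap, but 185 to 192 against 186 to 201 at ZT8 (log2 0.09 ± 0.04, adjusted p = 0.18). Nags differed by 0.00 ± 0.06 (limma adjusted p = 0.99). That the cytosolic and mitochondrial enzymes differed from each other in response was not tested. Among the enzymes that feed the cycle, Got1 was higher by 0.32 ± 0.16 (adjusted p = 0.23), Gls2 by 0.13 ± 0.09 (adjusted p = 0.35) and Glud1 by 0.02 ± 0.06 (limma adjusted p = 0.89), none of them called. Got1 spread widely, from 63.0 to 112 FPKM in control and 78.6 to 134 in IH over these 12 libraries.

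**Figure D3:**
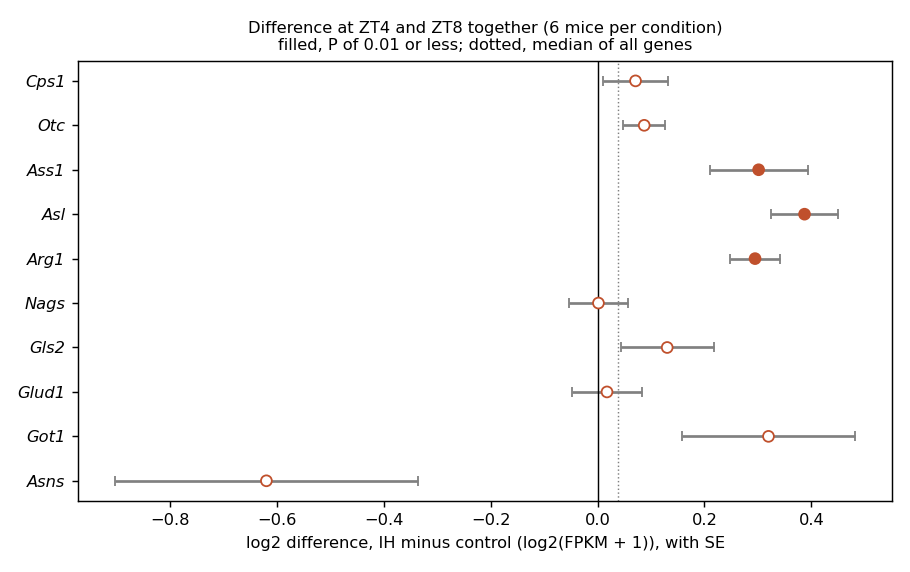
Difference between IH and control at ZT4 and ZT8 together on the log2(FPKM + 1) scale (horizontal axis) for each gene, with its standard error, 6 mice per condition. Filled points mark P of 0.01 or less, and the dotted line marks the median of all genes (0.04). Ass1, Asl and Arg1 stand between 0.29 and 0.39, and Asns lies at -0.62 with the widest error.

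Acute-phase RNA moved with the same comparison. Saa1, the inflammation-induced serum amyloid gene, held 2357, 57.4 and 2435 FPKM in control at ZT4 and 828, 24.0 and 19.1 at ZT8, against 21.9 to 72.1 in the 6 IH libraries. The 4 acute-phase genes Saa1, Saa2, Orm2 and Lcn2 summed to 35.3 to 4449 FPKM in the control libraries and 41.0 to 122 in IH, and 0 of the 4 were called (median log2 difference -2.13). Without the 3 control libraries with Saa1 above 500 FPKM, an alternative chosen after seeing the data that leaves 3 control libraries (1 of them at ZT4, taken to vary like the rest) and 6 IH libraries, Arg1 was higher by 0.28 and Asl by 0.39 and both were called by limma, and Ass1 was higher by 0.27 and was not called. The share of all genes called higher fell to 3.04% in that fit. At the same time points the share of calls that were higher in IH depended on scaling: 76.7% of calls as deposited and 48.9% after median-of-ratios scaling, while Arg1 stood at 0.23 and Asl at 0.32 on the log2 scale, both still called, and Ass1 at 0.23, no longer called.

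Asns, asparagine synthetase, held lower values in IH at ZT4. Control mice held 3.79, 3.42 and 3.47 FPKM and IH mice 0.55, 1.06 and 0.81, so every IH value lay below every control value, including that of the control mouse with 57.4 FPKM of Saa1 (replicate 2). On the log2(FPKM + 1) scale, which understates a change at this low level, the difference was -1.34 ± 0.60 (limma, adjusted p = 0.26), and it was not called. The spread in that fit is shared with the other time points, where single mice stood far out, and the difference was called when the 6 ZT4 libraries were fitted alone or when the 3 libraries of high Saa1 were left out. At ZT8 the groups overlapped, with 2.44, 0.74 and 0.96 FPKM in control and 0.78, 1.18 and 2.79 in IH. Over ZT4 and ZT8 the difference was -0.62 ± 0.28 (limma adjusted p = 0.18). It was called without IH ZT8 replicate 3 (-0.84, limma adjusted p = 0.047), the highest Asns value of the 6 IH libraries.

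Over all 6 time points none of the 10 members was called different, where 2.68% of all genes were higher and 0.666% lower in IH. Without the 3 libraries of high Saa1 these shares were 4.33% and 1.19%, and 0 members were called by limma, with 3 at an unadjusted P under 0.05 (Ass1, Asl and Arg1). Arg1 came nearest, at 1.09-fold (log2 0.12 ± 0.05, adjusted p = 0.34), and it was the 1 member with an unadjusted P under 0.05. The median difference of the members was 0.06 on the log2 scale against 0.03 for all genes.

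Taken at single time points with 3 mice against 3, just Arg1 at ZT4 was called higher (log2 0.33 ± 0.11, limma adjusted p = 0.12), among 4.87% of all genes called higher at ZT4, and the call was lost under each of the 3 other scalings tried and in 5 of the 6 fits that each left out 1 ZT4 library, all but control replicate 1. At ZT4 the 3 IH values lay above the 3 control values for 4 members (Otc, Ass1, Asl and Arg1), where 26.7% of all genes did so, and below them for Asns, where 7.79% did. At ZT8 this held upward for Asl and Arg1, where 11.0% did, and at ZT16 for Ass1, where 10.0% did. Glud1 did so at ZT0, with 287 to 321 FPKM in IH against 241 to 282 in control, where 4.59% of genes did. At ZT12 no member was without overlap, where 6.34% of all genes lay above control and 6.74% below. Ass1 held 1283, 1932 and 1016 FPKM in control and 843, 929 and 1025 in IH there (log2 -0.55 ± 0.23, limma adjusted p = 0.14) and was not called. Without control ZT12 replicate 2, the library at 1932 FPKM, the difference was -0.30. Without control ZT12 replicate 2, Arg1 was called lower in IH at ZT12 (log2 -0.27, limma adjusted p = 0.23) and higher at ZT8 (0.26, adjusted p = 0.33) as well as at ZT4.

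At ZT20, after 12 h of recovery in room air, IH lay above control without overlap for no member, where 11.8% of all genes did so. IH lay below control without overlap for 3 members, where 4.18% of all genes did. Asl was the 1 of them that had lain above control at ZT4 and ZT8. Asl held 296, 318 and 312 FPKM in control and 237, 288 and 252 in IH (log2 difference -0.26 ± 0.20, limma adjusted p = 1). Cps1 held 512, 563 and 545 FPKM in control and 481, 495 and 496 in IH (log2 -0.14 ± 0.19, adjusted p = 1), and Gls2 held 134, 134 and 137 in control and 111, 132 and 111 in IH (log2 -0.20 ± 0.18, limma adjusted p = 1). None was called by limma. Got1 had the largest difference at ZT20 among the 10, with 95.5, 79.3 and 131 FPKM in control and 45.8, 40.0 and 104 in IH (log2 -0.78 ± 0.40, adjusted p = 1), and its ranges overlapped. Without IH ZT20 replicate 3, the mouse at 104 FPKM, Got1 was called lower at ZT20 (-1.20, limma adjusted p = 0.66) and rhythmic under IH (adjusted p = 0.022). In that fit Nags was called higher at ZT20 (0.39, limma adjusted p = 0.59). The shares of all genes called in that fit are not given here.

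**Figure D4:**
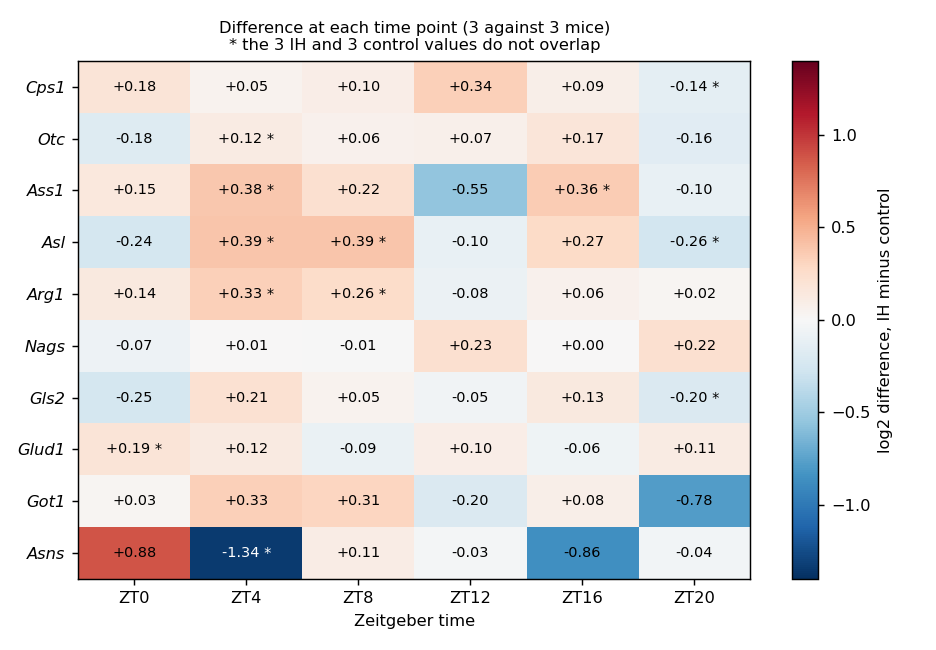
Difference between IH and control (log2, colour and number) for each gene (rows) at each time point (columns), 3 mice against 3, with a star where the values of the conditions do not overlap. Upward stars stand at ZT4 and ZT8 for Asl and Arg1, at ZT4 and ZT16 for Ass1, at ZT4 for Otc and at ZT0 for Glud1, downward stars of Cps1, Asl and Gls2 at ZT20, and Asns shows the largest difference of the map in size, -1.34 at ZT4.

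Several members took extreme values in the libraries that stood apart. In control ZT12 replicate 2, Cps1 held 229 FPKM between replicates of 522 and 524, Glud1 158 between 260 and 265, Nags 21.1 between 31.8 and 29.4, and Arg1 626 between 914 and 912. Each of these was the lowest of all 36 libraries. In the same liver Ass1 (1932 FPKM, with replicates of 1283 and 1016) and Asl (537) were the highest of all 36. In IH ZT0 replicate 2, Ass1 (668 FPKM), Asl (119), Otc (113) and Gls2 (76.2) were instead the lowest of the 36, while IH ZT0 replicate 3 held 1754 FPKM of Ass1. In control ZT12 replicate 2 the leukocyte genes S100a8 and S100a9 reached 106 and 97.3 FPKM, and 7 listed leukocyte genes summed to 205 FPKM against 1.29 in the lowest control library and 0.87 to 13.9 in IH. The part of these cells, of the acute-phase RNA or of the trend with exon length in the members' values was not tested.

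Asns and Otc set the libraries of high Saa1 apart. The 3 libraries with Saa1 above 10000 FPKM held the 3 highest Asns values, 5.97 to 9.79 FPKM against 0.40 to 3.79 in the other 33 libraries, and the 3 lowest Otc values, 113 to 132 FPKM against 142 to 204. For Gls2, the same libraries held 76.2 to 114 FPKM against 98.3 to 159 in the others, with overlap. For Got1 the values, 53.7 to 111 FPKM, lay inside the range of the others. These libraries were picked by Saa1, which is no member, and came from both conditions, so the pattern is a description of 3 mice.

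**Figure D5:**
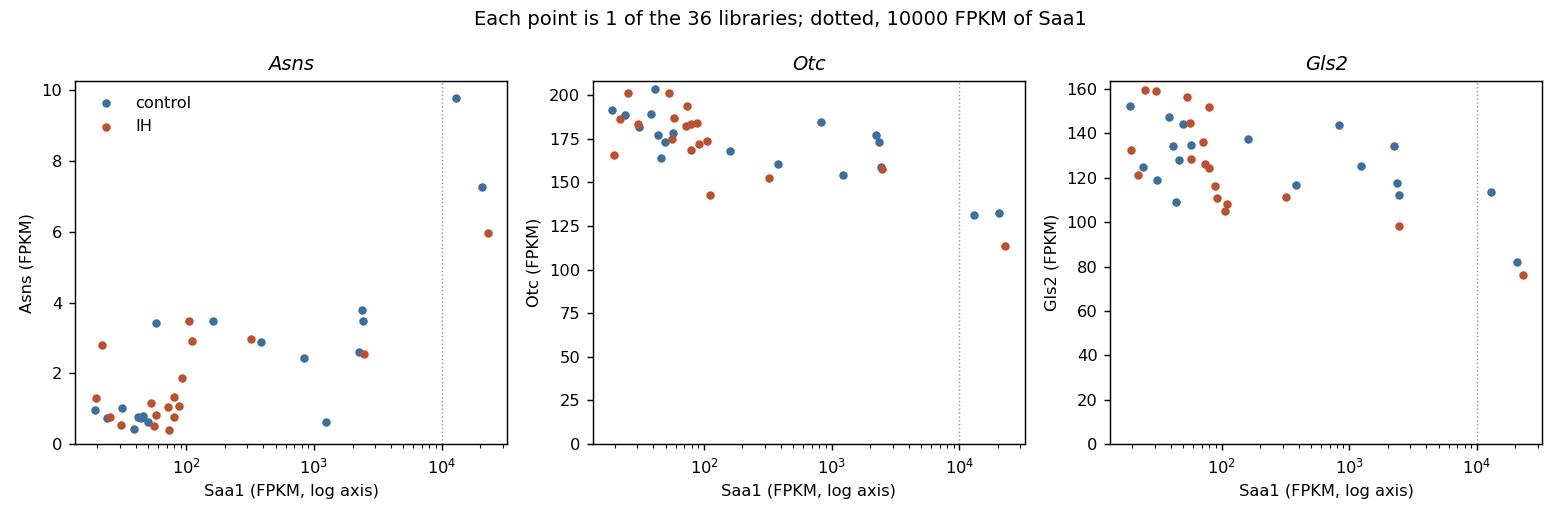
FPKM of Asns, Otc and Gls2 (vertical axes, from 0) against FPKM of Saa1 (horizontal log axis), 1 point per library, control in blue and IH in orange, with a dotted line at 10000 FPKM of Saa1. The 3 points right of the line are the highest for Asns and the lowest for Otc.

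Some members followed each other over the 12 groups of condition and time point. These correlations are descriptions of 12 medians that share the day's course. Otc ran with Gls2 (Pearson r = 0.75) and against Nags (-0.78) and Glud1 (-0.77), and Glud1 ran with Nags (0.69). A weaker relation, in opposite directions, held between Cps1 and Nags, which makes the activator of Cps1 (-0.53). Among all tested genes averaging at least 1 FPKM, the closest to Asl were Gm4737 (0.97), a copy of Ahcy that may share its reads, Ahcy itself (0.97), which hydrolyses S-adenosylhomocysteine, and Fmo1 (0.95), a flavin monooxygenase. Closest to Arg1 was Eno3 (0.92), a muscle-type enolase, followed by Eea1 (0.88) and Scarf1 (0.87). Closest to Otc were Bche (0.97), butyrylcholinesterase, Pcf11 (0.94) and Kdm7a (0.93), and closest to Ass1 were Gstk1 (0.91), Rarres2 (0.88) and Rai2 (0.86). For Cps1 the likeness was weaker, with Dpyd, the enzyme that starts pyrimidine breakdown, at 0.83, Asrgl1, an asparaginase, at 0.82 and Ttc38 at 0.79.

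Of 7 tested mitochondrial partners of the cycle, 1 was higher in IH at ZT4 and ZT8 and none lower, beside 9.49% and 2.89% of all genes. The called partner was Car5a, the mitochondrial carbonic anhydrase that supplies bicarbonate to Cps1 (log2 0.31 ± 0.08, limma adjusted p = 0.034), a call lost without the 3 control libraries of Saa1 above 500 FPKM. Slc25a15, which carries ornithine and citrulline across the inner membrane, was lower by 0.10 ± 0.05 (adjusted p = 0.23), and Slc25a13, the aspartate/glutamate carrier, was higher by 0.15 ± 0.08 (adjusted p = 0.24), neither called. Got2, the mitochondrial aspartate aminotransferase, differed by 0.12 ± 0.05 (limma adjusted p = 0.15). Slc25a15 cycled in both conditions, peaking at 22.0 h in control mice (1.61-fold range) and at 20.9 h in those under IH (1.45-fold), as did Sirt5, a mitochondrial deacylase, with peaks at 4.62 and 3.65 h. Slc25a13 was called under IH (peak 10.2 h, limma adjusted p = 0.017) and not in control (adjusted p = 0.76), with no called difference between them (adjusted p = 0.94). In all, 2 of 7 were rhythmic in control and 3 in IH, beside 20.0% and 39.9% of all genes. Without the 3 libraries of high Saa1, a fit in which these shares were 27.4% and 42.4%, 2 of 7 were rhythmic in each condition, as the call of Slc25a13 under IH was lost.

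At ZT4 and ZT8, where 9.49% of all genes were called higher and 2.89% lower, 3 of 12 enzymes of ammonia and glutamine were higher and none lower. They were Gpt2 (log2 0.44 ± 0.09, limma adjusted p = 0.021) and Gpt (0.20 ± 0.05, adjusted p = 0.046), the alanine aminotransferases, and Aspg, an asparaginase (0.33 ± 0.09, adjusted p = 0.046). Gpt2 was higher by 0.56 and still called without the 3 control libraries of Saa1 above 500 FPKM, and Gpt and Aspg were not called then. Glul, glutamine synthetase of the pericentral hepatocytes, missed the threshold at these hours (0.28 ± 0.09, limma adjusted p = 0.082). It was called higher over all time points (0.22 ± 0.06, limma adjusted p = 0.076), as 1 of 12, where 2.68% of all genes were called higher. In each condition 4 of the 12 were rhythmic, beside 20.0% of all genes in control and 39.9% in IH, led by Gpt in control (peak 12.2 h) and by Aspg in IH (peak 4.91 h). Without the 3 libraries of high Saa1, 6 were rhythmic in control, Gpt2 and Gmps being added, and 4 in IH, Gpt no longer among them. The shares of all genes in that fit were 27.4% and 42.4%.

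Among 10 transporters of glutamine, glutamate, cationic amino acids and ammonia, 3 were higher at ZT4 and ZT8 and 1 was lower, beside 9.49% and 2.89% of all genes. Slc38a3, the main glutamine carrier of the periportal membrane, was higher by 0.26 ± 0.06 (limma adjusted p = 0.031), Slc38a4 by 0.21 ± 0.06 (adjusted p = 0.049) and Slc1a5 by 0.20 ± 0.05 (adjusted p = 0.041), and Slc1a4 was lower by -0.27 ± 0.07 (limma adjusted p = 0.039). Without the 3 control libraries of Saa1 above 500 FPKM, Slc38a3 and Slc1a5 stayed called and Slc38a4 and Slc1a4 did not. Slc1a5 was also higher over all time points (0.24 ± 0.05, limma adjusted p = 0.011), as 1 of the 10, where 2.68% of all genes were called higher. Both Slc1a5 and Slc1a4 were low in level. At ZT4 and ZT8 mean log2(FPKM + 1) was 0.80 in control and 1.00 in IH for Slc1a5, and 0.85 and 0.58 for Slc1a4. Slc38a3 cycled in both conditions, peaking at 7.96 h in control mice (2.35-fold range) and at 7.25 h under IH (2.73-fold). In control 3 of the 10 were rhythmic and in IH 6, beside 20.0% and 39.9% of all genes. Without the 3 libraries of high Saa1 the counts were 4 and 6, beside 27.4% and 42.4% of all genes in that fit. Among the IH calls with all libraries Slc7a2, the cationic amino acid transporter, had a 3.08-fold range (limma adjusted p = 0.0057).

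The enzymes that use ornithine and proline split by direction at ZT4 and ZT8, where 9.49% of all genes were called higher and 2.89% lower. Of 8 tested, Prodh, which opens proline breakdown, was higher at ZT4 and ZT8 (log2 0.45 ± 0.08, limma adjusted p = 0.012). Lower were Oat, ornithine aminotransferase (-0.41 ± 0.09, adjusted p = 0.026), Odc1, which starts polyamine synthesis (-0.30 ± 0.09, adjusted p = 0.064), and Aldh18a1, which starts proline synthesis (-0.18 ± 0.04, limma adjusted p = 0.029). Oat, found in the pericentral hepatocytes together with Glul, was lower over all time points as well (-0.35 ± 0.08, limma adjusted p = 0.041). In that comparison it was 1 of the 8, where 0.666% of all genes were called lower. Aldh18a1 lay near the floor, with a mean log2(FPKM + 1) of 0.42 in control and 0.24 in IH at ZT4 and ZT8. Prodh (0.49) and Oat (-0.48) stayed called without the 3 control libraries of Saa1 above 500 FPKM, and Odc1 and Aldh18a1 did not. Rhythms were called for 6 of the 8 in control and 4 in IH, beside 20.0% and 39.9% of all genes, led by Prodh in control (peak 14.2 h) and Odc1 in IH (peak 16.2 h). Without the 3 libraries of high Saa1 the counts were 8 and 4, beside 27.4% and 42.4% of all genes in that fit. Prodh was then called higher over all time points, as were 4.33% of all genes.

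Of 12 genes of the Atf4 amino acid response tested, 3 were called higher at ZT4 and ZT8 and none lower, beside 9.49% and 2.89% of all genes. The called genes were Trib3, a pseudokinase induced by Atf4 (log2 0.80 ± 0.16, limma adjusted p = 0.020), Eif4ebp1, a brake on translation (0.24 ± 0.05, adjusted p = 0.017), and Shmt2, mitochondrial serine hydroxymethyltransferase (0.15 ± 0.05, adjusted p = 0.062). Uncalled but lower in value were Asns, a member of the same response, and Atf5, Chac1, Nupr1, Cebpb and Psat1 of the list. Atf4, Ddit3, Sesn2 and Fgf21 were higher in value and uncalled. Trib3 and Eif4ebp1 stayed called without the 3 control libraries of Saa1 above 500 FPKM, and Shmt2 did not. Atf4 itself was called higher over all time points (0.20 ± 0.06, limma adjusted p = 0.19), as 1 of the 12, where 2.68% of all genes were called higher. Trib3 cycled in both conditions with peaks at 5.81 and 5.87 h, with a 3.30-fold range in control and 6.79-fold in IH. Atf5 was the 1 gene of these lists whose rhythms were called different (limma adjusted p = 0.80), where 0.931% of all genes were called. Its fitted peaks were at 1.12 h in control mice and at 23.6 h under IH. Without the 3 libraries of high Saa1, Got2 was called different too. Rhythms were called for 3 of the 12 in control and 4 in IH, beside 20.0% and 39.9% of all genes. Of 13 factors known to act on urea cycle genes, none was called at ZT4 and ZT8, with Klf15, a glucocorticoid-induced regulator of amino acid breakdown, nearest (0.28 ± 0.09, adjusted p = 0.088), and 2 were rhythmic in control (Klf15 and Foxo1) and 4 in IH (Ppara, Gcgr, Creb1 and Nfyb), beside 20.0% and 39.9% of all genes. Without the 3 libraries of high Saa1 the counts were 4 in control, Ppara and Cebpa being added, and 5 in IH, with Hnf4a. The shares of all genes in that fit were 27.4% and 42.4%.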

How the data were processed

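Liver RNA of 36 mice was sequenced as strand-specific polyA libraries. Per the submitters' processing notes and the study's methods, the authors aligned reads to mm10 with TopHat2 2.1.1 running Bowtie2, and Cufflinks 2.2.1 made the deposited FPKM values, 1 table per condition. The annotation they used is not given in the sources used here, and each table's own name gave its condition. Of 24346 symbols, the 280 found on several rows were dropped. Depth is unknown, so no counting interval could be given.

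The members and gene lists were chosen with earlier results of these data known. Named from each list are the 5 called genes of smallest P in the comparison described, and always Glul, Got2, Slc25a15, Slc25a13 and Arg2 where tested. limma 3.58.1 (R 4.3.3, empirical Bayes with an intensity trend) was run on log2(FPKM + 1) of the 13215 genes averaging 0.1 FPKM or more, and p-values were adjusted over all of them by Benjamini-Hochberg. Rhythm was a cosine of 24 h within each condition (F test over 18 libraries), and the difference of rhythms its interaction with condition over 36. Levels were compared over all time points and over ZT4 and ZT8 with a term for the time point, and at single time points in a fit of 12 groups. The call threshold was the nominal P of 0.01 that the study used for rhythms, and BIO_CYCLE, the rhythm test of the study, was not used here. Each test was run on simulated data with independent normal noise of the same spread in every library. No simulated library stood apart or was shifted as a whole, so the check does not cover such libraries or the choice of scaling. Alternatives covered the pseudocount, filter, scaling, replicate block, sample weights, JTK_Cycle and each library left out. Arg2 fell below the filter. Some genes of the lists are not reported here and stay out of the lists' counts.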

Additional observations from a re-analysis of the deposited data

Results flagged for a closer look

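In Asl the time points differed in direction. Every IH mouse lay above every control mouse at ZT4 (log2 difference 0.39) and at ZT8 (0.39), and every IH mouse lay below every control mouse at ZT20 (-0.26). The interaction of condition with the 6 time points missed the call threshold (limma, adjusted p = 0.39), and the contrast of ZT20 with ZT4 and ZT8 alone was not tested. No library of a group of 3 was tested for standing apart.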

How the results depend on the processing

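No called difference of a member changed direction under any alternative. Called in 31 of 31 alternatives was the Asl rhythm in each condition, and Arg1 at ZT4 and ZT8 in 24 of 24; Asl there was called in 23 of 24, lost in the fit of all 36 libraries, and Ass1 in 11 of 24, lost among others without IH ZT4 replicate 1 or 3, IH ZT8 replicate 1 or 2, control ZT4 replicate 2 or 3 or control ZT8 replicate 2 (0.22 to 0.38 on the log2 scale over all alternatives). Arg1 at ZT4 alone was called in 38 of 47, lost without any 1 of the IH ZT4 libraries or control ZT4 replicate 2 or 3 (0.22 to 0.38). The Glud1 rhythm under IH was called in 30 of 31, lost with a spread shared between the conditions, and that of Nags in 16 of 31, lost with the time point as a factor, with a shared spread, without the 3 libraries of high Saa1 and without any 1 IH library of ZT0, ZT4 or ZT8, IH ZT16 replicate 1 or IH ZT20 replicate 1 or 2. The cause of these losses was not tested. Counts of called members moved by over 1.5 times as follows. For the rhythm in control (1 member) the count was 2 with median-of-ratios scaling, with sample weights and without the 3 libraries of high Saa1 (chosen after seeing the data), each time by adding Arg1. For the rhythm in IH (3) it was 1 with a shared spread. For the difference of rhythms (0) it was 1, Glud1, with sample weights and without the 3 libraries. For the level over all time points (0) it was 1, Arg1, with sample weights, and for ZT4 and ZT8 (3) it was 1, Arg1, in the fit of all 36 libraries. For single time points (1 call) it was 0 at an adjusted p of 0.05, with a common FPKM sum, with median of ratios and with quantile normalization, 4 with sample weights, 5 with the 6 libraries of a time point alone and 4 without the 3 libraries. Leaving out 1 library at a time gave 1 to 2 for the rhythm in control, 2 to 4 in IH, 0 to 1 for the difference of rhythms (Glud1, without control ZT12 replicate 2), 0 to 1 over all time points (Arg1, without control ZT12 replicate 1 or 3 or IH ZT12 replicate 2), 2 to 4 at ZT4 and ZT8 and 0 to 3 at single time points, where Ass1 at ZT12 was called lower without IH ZT0 replicate 2 or 3 or control ZT12 replicate 3. Pairing of the mice by replicate number was not seen: deviations of same-numbered libraries correlated at 0.054 on average (-0.18 to 0.29), over 0.1 in 6 of 18 pairs. A weak pairing could be missed this way. With the replicate block the counts were 1, 3, 0, 0, 3 and 1 in the order given. The share of calls over all time points that were higher in IH was 80.1% as deposited and 47.2% with median of ratios. Read depth, which sets the precision of a gene as low as Asns, is unknown, and 3 mice per group and time point limit every comparison.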
